A study of Mus musculus with 4 samples.

Results

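The dividing cells of the developing mouse superior colliculus were taken as the nuclei that the deposited annotation of the authors placed in its dividing class. They numbered 106 of 9724 nuclei. This part of the midbrain turns visual and other sensory input into orienting movements. Nuclei came from C57BL/6J mice, with no further genotype or treatment given in the labels, at 4 stages: embryonic day 19 (E19), then 4, 8 and 21 days after birth (P4, P8, P21). A stage had 1 library, from tissue pooled over several animals, and the sources used here do not say how many or of which sex. The dividing class held 36 of 2585 nuclei in the E19 library, 25 of 2386 in P4, 35 of 2504 in P8 and 10 of 2249 in P21. The authors gave these nuclei a single subtype, named after the class.

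A dividing cell copies its DNA in S phase, packs and separates the copies in mitosis, and then cuts its body into daughters. Different genes serve each step: replication enzymes first, then condensins and topoisomerase II that shape chromosomes, kinetochore proteins that attach them to the spindle, spindle motors, and the proteins of the cleavage furrow. In the midbrain around birth most neurons have already left the cycle, while astrocytes and oligodendrocyte precursors still multiply, and precursors keep a low rate of division in the adult.

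Many genes of late cycle steps carry a short promoter element, the cell cycle genes homology region, beside CCAAT boxes bound by NF-Y, while many genes of S phase carry E2F sites. The bases before the start of 4 genes are shown, 3 of mitosis and 1 of replication, chosen because these runs hold matches. Each run covers the 250 bases before the start site of the RefSeq entry on GRCm38.p6, 5′ to 3′ in the direction of the gene. In Top2a (chr11:99024190-99024439, minus strand), Mki67 (chr7:135716380-135716629, minus strand) and Kif11 (chr19:37376132-37376381, plus strand) capitals mark TTTGAA and CCAAT on either strand. In Mcm6 (chr1:128359706-128359955, minus strand) capitals mark the E2F words TTTCCCGC, TTTGGCGC, TTTCGCGC and TTTGCCGC on either strand, of which a pair overlaps.
Top2a: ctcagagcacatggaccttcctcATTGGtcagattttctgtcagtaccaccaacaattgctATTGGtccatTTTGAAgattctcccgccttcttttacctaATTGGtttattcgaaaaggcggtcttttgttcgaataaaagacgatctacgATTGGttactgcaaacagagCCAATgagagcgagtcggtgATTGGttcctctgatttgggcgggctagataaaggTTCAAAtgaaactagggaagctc
Mki67: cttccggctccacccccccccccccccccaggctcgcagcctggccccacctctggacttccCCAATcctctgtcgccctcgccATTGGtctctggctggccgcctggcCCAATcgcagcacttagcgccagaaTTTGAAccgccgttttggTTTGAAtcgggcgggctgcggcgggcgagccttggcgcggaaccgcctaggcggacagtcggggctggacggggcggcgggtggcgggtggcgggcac
Kif11: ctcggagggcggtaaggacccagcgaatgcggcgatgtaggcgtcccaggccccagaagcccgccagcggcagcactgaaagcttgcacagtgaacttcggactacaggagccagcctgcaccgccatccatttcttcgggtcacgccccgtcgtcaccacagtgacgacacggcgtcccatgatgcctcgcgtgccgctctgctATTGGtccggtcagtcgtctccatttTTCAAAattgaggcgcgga
Mcm6: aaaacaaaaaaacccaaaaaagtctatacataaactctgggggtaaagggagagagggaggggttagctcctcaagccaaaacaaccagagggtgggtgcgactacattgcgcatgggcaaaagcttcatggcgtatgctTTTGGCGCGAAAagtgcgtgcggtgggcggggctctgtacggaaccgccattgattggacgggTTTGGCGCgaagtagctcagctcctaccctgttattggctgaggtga
The Top2a run held 2 matches to TTTGAA and 6 to CCAAT, the Mki67 run 2 and 3, and the Kif11 run 1 and 1, and none of these runs held an E2F word. The same window of Knl1, a kinetochore gene and like Top2a and Kif11 a marker of the class, held no match to any of these words and is not printed. The Mcm6 run held 3 E2F matches, 2 CCAAT matches and none to TTTGAA. Across the mitotic lists used below, 80 of 92 genes matched a RefSeq entry, and 34 of their 88 promoters (38.6%) held TTTGAA, against 5252 of all 32851 promoters (15.99%). CCAAT was held by 63.6% of the mitotic promoters and 33.9% of all promoters. This was not particular to the mitotic lists: the shares were 56.5% for DNA replication, 61.1% for DNA repair and 64.3% for cycle control promoters. The E2F words were held by 12 of 46 promoters of DNA replication genes (26.1%), by 9.09% of mitotic promoters and by 1.86% of all promoters. A gene can have several promoters in these counts. The shares describe letters in this window and were not tested.

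In the deposited counts of unique molecular identifiers (UMIs), the dividing nuclei held 212103 UMIs in E19, 129946 in P4, 230338 in P8 and 60090 in P21. The median dividing nucleus held 5728 UMIs, against 4911 in astrocytes, 4319 in oligodendrocyte precursors (OPCs) and 11598 in excitatory neurons. No dividing nucleus lay above the 95th percentile of UMIs of its library. Among all nuclei, 9 barcodes occurred in more than 1 library, and 0 of them belonged to a dividing nucleus. The median percent of UMIs from mitochondrial genes in dividing nuclei was 1.17 at P4 and between 0.523 and 0.794 in the other libraries. Values in brackets after a level or share are 95% limits, which cover counting error alone.

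The label was set beside 3 markers that were named with the class: Top2a, which untangles DNA, Kif11, a motor that keeps the spindle poles apart, and Knl1, a scaffold of the kinetochore. All 3 were found in 63 nuclei, 2 of them in 30, 1 in 10 and none in 3. Top2a (chr11:98992943-99024189, minus strand) gave 160 UMIs in E19, 118 in P4, 186 in P8 and 66 in P21. This was 754 CPM (counts per 1000000 UMIs of the summed nuclei), 908, 808 and 1098 CPM. Every library was thus far above the 3.08 CPM of the nuclei of all other classes, and 99 of 106 dividing nuclei (93.4%) held a Top2a UMI, against 1.42% of excitatory neurons despite their greater depth. Kif11 (chr19:37376403-37421859, plus strand) gave 89, 53, 89 and 18 UMIs in the same order of stages, 394 CPM in all dividing nuclei (346 to 446) against 2.76 CPM elsewhere. Knl1 (chr2:119047119-119105501, plus strand) gave 59, 55, 90 and 28 UMIs, 367 CPM (321 to 417) against 2.38 CPM. The class name went with its markers in all 4 libraries. The markers were named with the class, which came from these counts, so this describes the label and does not test it.

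The class came from clustering on these counts, so its differences from other nuclei are given as a description with no test. The level of a gene in all dividing nuclei was set against the other classes, with each library weighted by the share of dividing UMIs it gave. Differences are log2 ratios with 5 CPM added to both levels, which understates the difference of low genes. Of 7920 genes that passed a filter on low values, 436 (5.51%) were at least 4-fold higher in dividing nuclei and 318 (4.02%) at least 4-fold lower. Against astrocytes and the oligodendrocyte lineage alone, 200 of 8207 genes (2.44%) were at least 4-fold higher. Of the 436, 190 were also at least 4-fold higher over these glia.

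Cell cycle genes led the list. Of 204 genes in 8 lists of cycle functions, 164 passed the filter and 136 were at least 4-fold higher, beside the 5.51% of all genes, and 124 were so over glia, beside 2.44%. A gene low in other nuclei passes the filter only through its UMIs in dividing nuclei, so the filter set part of these counts. Without a filter, 145 cycle-list genes were at least 4-fold higher, of 468 such genes among all 31053. The median log2 ratio over all 204 genes was 2.98, and over all genes that passed the filter it was 0.075. Of the 20 genes with the largest ratios, 17 belonged to a cycle list and all 20 were at least 4-fold higher over glia. Among them were Top2a (log2 ratio 6.71), Kif11 (5.68), Knl1 (5.66), Cenpf, Mki67, Kif15, Cdca2, Diaph3, Lockd, Tpx2, Ect2, Cenpe, Kif4, Cenpa, Kif14, Atad2, Neil3, Hmmr and Kif23 (4.84). The 3 outside the lists were Cdca2, a phosphatase anchor on chromosomes at mitotic exit, Neil3, a DNA repair glycosylase, and Lockd, a long noncoding RNA beside Cdkn1b. Lockd gave 54 UMIs in E19, 34 in P4, 47 in P8 and 16 in P21, 239 CPM (202 to 280) against 1.42 CPM. Of these 20 genes 7 overlap an annotated gene on the opposite strand and 6 one on the same strand, so some of their UMIs may belong to the neighbour.

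**Figure D1:**
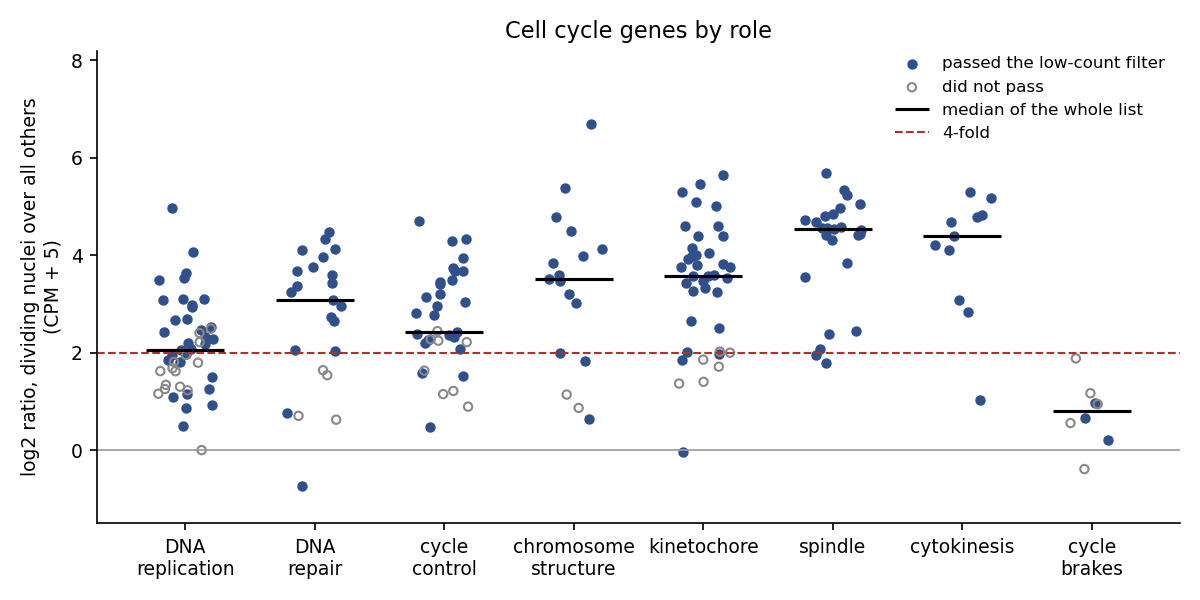
Each point is 1 gene of a cycle list, placed by its log2 ratio of dividing nuclei over all other nuclei (CPM + 5). Filled points passed the filter on low values, open points did not, bars are list medians and the dashed line is 4-fold. Spindle (median 4.54) and cytokinesis genes (4.40) lie highest and the brakes (0.80) lie under the line.

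Among DNA replication genes 21 of 47 were at least 4-fold higher, with a list median of 2.06. Atad2, a chromatin factor loaded at replication, stood at 310 CPM against 5.10 CPM (log2 ratio 4.96), and Pola1, the catalytic subunit of polymerase alpha, at 349 CPM against 60.9 CPM (2.43). Pole, the catalytic subunit of the leading-strand polymerase, stood at 150.2 CPM against 8.48 CPM (3.53). Prim2, a primase subunit, stayed just short of the fold at 1.95. Mcm6, a subunit of the replicative helicase whose promoter is printed above, gave 47 UMIs and a log2 ratio of 2.67. Several members with few UMIs did not pass the filter, such as Mcm3 with 19 UMIs.

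DNA repair genes followed with 17 of 23 at least 4-fold higher. Brca1, which works in repair by homologous recombination, stood at 175.5 CPM against 3.13 CPM (4.47), Brip1, its helicase partner, at 136 CPM against 1.96 CPM (4.34), and Mms22l, which acts at stalled forks, at 212 CPM against 8.81 CPM (3.97). Blm, a helicase, lay just above the fold at 2.03.

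Of the genes that drive or time the cycle, 23 of 34 were at least 4-fold higher. Cdc25c, the phosphatase that switches on Cdk1, stood at 136 CPM against 0.387 CPM (4.71), and Cdk1 itself at 114 CPM against 0.928 CPM (4.33). Ccnf, a cyclin-like ubiquitin ligase subunit, stood at 180.2 CPM against 6.95 CPM (3.95), and Rbl1, a relative of the retinoblastoma protein, had a ratio of 2.42. E2f3, a transcription factor of the E2F family, did not reach the fold (1.58). Ccnd2 and Cdk6, which act at entry into the cycle, passed the fold over all other nuclei (2.33 and 2.08) but stood at 0.36 and −0.014 over glia.

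None of the 8 genes in the list of brakes on the cycle was 4-fold higher or lower, and 3 of them passed the filter. The list does not hold every brake: Rbl1, counted above, is also a relative of Rb1 and passed the fold (2.42). Rb1, the retinoblastoma protein, stood at 194.5 CPM against 122 CPM (0.66), and Rbl2, its relative, at 0.21. Cdkn1a, the p21 inhibitor, had 5 UMIs in 5 nuclei and a ratio of −0.39.

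The genes that shape chromosomes and keep sister copies together were at least 4-fold higher in 12 of 17 cases. Mki67, a coat of mitotic chromosomes and the usual marker of proliferation, gave 97 UMIs in E19, 42 in P4, 65 in P8 and 9 in P21. Its level was 457, 323, 282 and 149.8 CPM in that order, so the oldest library was lowest, on 9 UMIs. Smc4 and Ncapd2, both condensin subunits, had ratios of 4.79 and 3.52.

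In the kinetochore list 30 of 39 genes were at least 4-fold higher. Cenpf gave 60, 43, 74 and 30 UMIs at the 4 stages, 327 CPM in all (284 to 375) against 2.57 CPM (5.46). Hjurp, which loads the centromeric histone, and Cenpp, of the inner kinetochore, had ratios of 2.50 and 3.57. Zwint, a partner of Knl1, was no higher in dividing nuclei (139 CPM) than elsewhere (143 CPM), with a ratio of −0.035.

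Spindle genes were at least 4-fold higher in 23 of 25 cases, and cytokinesis genes in 10 of 11. Kif15, a motor that backs up Kif11, stood at 354 CPM against 3.84 CPM (5.34), and Spag5, a spindle protein, had a ratio of 2.46. Ckap5, which builds microtubules also outside mitosis, did not reach the fold (1.78). Diaph3, an actin nucleator of the cleavage furrow, gave 145 UMIs in E19, 89 in P4, 166 in P8 and 60 in P21, 727 CPM (662 to 797) against 13.5 CPM (5.30). Prc1 and Racgap1, which organise the central spindle, had ratios of 4.79 and 4.12. Cit, a kinase of the furrow, stood at 351 CPM against 168 CPM (1.04) and was the cytokinesis gene short of the fold, while over glia its ratio was 2.26.

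Genes at the other end were those of neurons. The 10 lowest ratios among genes at 100 CPM or more elsewhere included those of Ebf2, Srrm4, Vwa5b2, Snhg11, Epha10, Jakmip1, Ankrd55, Col25a1 and A230006K03Rik. Ebf2, a transcription factor gene, had 0 UMIs against 148 CPM elsewhere, at least 31.3-fold lower against a floor of 3 UMIs in the summed dividing nuclei. Srrm4, a splicing regulator of neurons, had 3 UMIs against 269 CPM. Snhg11, a noncoding RNA abundant in neurons, stood at 169 CPM against 3641 CPM (−4.39), and its ratio over glia was −0.26. The list of 6 neuron genes summed to 882 CPM in dividing nuclei, 975 CPM in glia and 8549 and 9393 CPM in excitatory and inhibitory neurons. The neurogenic progenitor list was not lower than elsewhere: it summed to 44.3 CPM, against 24.35 CPM in all other nuclei and 57.0 CPM in glia. Of its 9 genes, 5 (Neurog1, Neurog2, Eomes, Neurod1 and Insm1) had no UMI in any dividing nucleus, and the other 4 gave 28 UMIs.

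Every dividing nucleus carried mitotic transcripts. UMIs of the 4 mitotic lists (chromosome structure, kinetochore, spindle and cytokinesis) ranged from 14 to 256 per nucleus with a median of 71.5, and those of the replication list from 1 to 42 with a median of 18. With at least 3 UMIs as the bar, 97 nuclei held both kinds, 9 held mitotic transcripts only, and 0 held replication transcripts only or neither. The mitotic bar does not sort nuclei, since 9193 of the 9618 nuclei of other classes met it too. The 9 came from all libraries: 2 from E19, 3 from P4, 1 from P8 and 3 from P21. Replication UMIs outnumbered mitotic UMIs in 3 nuclei. The lists differ in size and in the length of their genes, so these totals rank nuclei and do not time them, and phases are ranges of a count, not cell types. The summed mitotic lists stood at 14337 CPM in E19, 17346 CPM in P4, 15013 CPM in P8 and 18739 CPM in P21, beside 1351 CPM in astrocytes with fewer than 2 of the 3 markers.

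**Figure D2:**
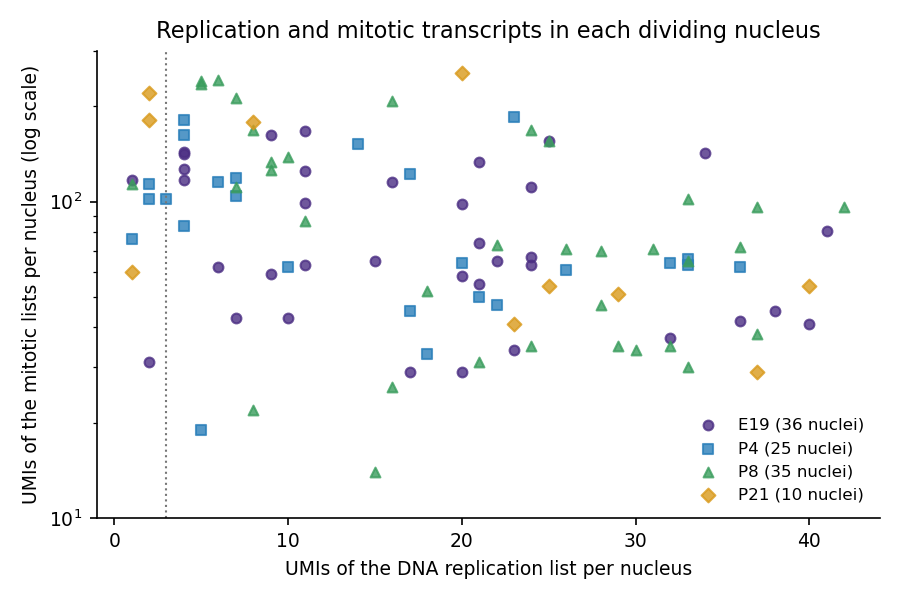
Each point is 1 dividing nucleus, placed by its UMIs of the DNA replication list (horizontal) and of the mitotic lists (vertical, log scale), with the library shown by colour and shape. The dotted line marks 3 replication UMIs. Nuclei of the 4 libraries intermingle, and all 106 lie at 14 or more mitotic UMIs.

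Which lineage the dividing nuclei belonged to was asked by fitting each one to the summed profiles of the other classes, with the cycle genes left out. The best class was the astrocyte in 44 nuclei and the oligodendrocyte lineage in 62, and 0 nuclei fitted neurons, microglia, endothelial, epithelial or leptomeningeal cells best. Oligodendrocyte-lineage-fitted nuclei mostly had smaller margins over the second class than astrocyte-fitted nuclei, and that second class was often a neuron. The lowest margin, in a P8 nucleus over excitatory neurons, was 15.9 log-likelihood units per 1000 UMIs. Applied to the other 9618 nuclei, each with its own UMIs taken out of its class, the fit returned the deposited class for 98.7%, including 99.9% of astrocytes and 99.4% of oligodendrocyte-lineage nuclei. Those classes were drawn from the same counts, so a high rate was built in. It does not measure how often the fit is right for dividing nuclei, which belong to none of the reference classes. The fit used the whole profile, so the marker levels that follow describe the lineages and do not test them.

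Most dividing nuclei were astrocyte-fitted before birth and none at P21. Astrocyte-fitted nuclei were 25 of the 36 in E19 (69.4%, 51.9 to 83.7), 11 of the 25 in P4 (44.0%, 24.4 to 65.1), 8 of the 35 in P8 (22.9%, 10.4 to 40.1) and 0 of the 10 in P21 (0 to 30.9). The E19 interval does not overlap those of P8 and P21, while that of P4 overlaps all others. With 1 library per stage, these intervals cover the counting of nuclei and not variation between libraries. With class profiles of the same library as references, the 10 nuclei of P21 went to excitatory (5) and inhibitory neurons (5), where 64 of the 306 oligodendrocyte-lineage nuclei of that library were OPCs. With the subtypes of the same library, a setting added after seeing the data, all 10 went to the oligodendrocyte lineage. Marker lists alone sent 48 of the 106 nuclei to other classes, on a median of 2 UMIs of the winning list. Set against their non-dividing counterparts, dividing nuclei made up 11.3% of the astrocyte-fitted and astrocyte nuclei in E19 (7.46 to 16.2), 4.70% in P4 (2.37 to 8.26), 3.32% in P8 (1.44 to 6.44) and 0% in P21 (0 to 1.28). In the oligodendrocyte lineage the same share, over dividing nuclei and OPCs, was 19.3% in E19 (10.1 to 31.9), 25.0% in P4 (14.4 to 38.4), 19.9% in P8 (13.5 to 27.6) and 13.5% in P21 (6.68 to 23.5). The intervals of all 4 libraries overlap there.

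**Figure D3:**
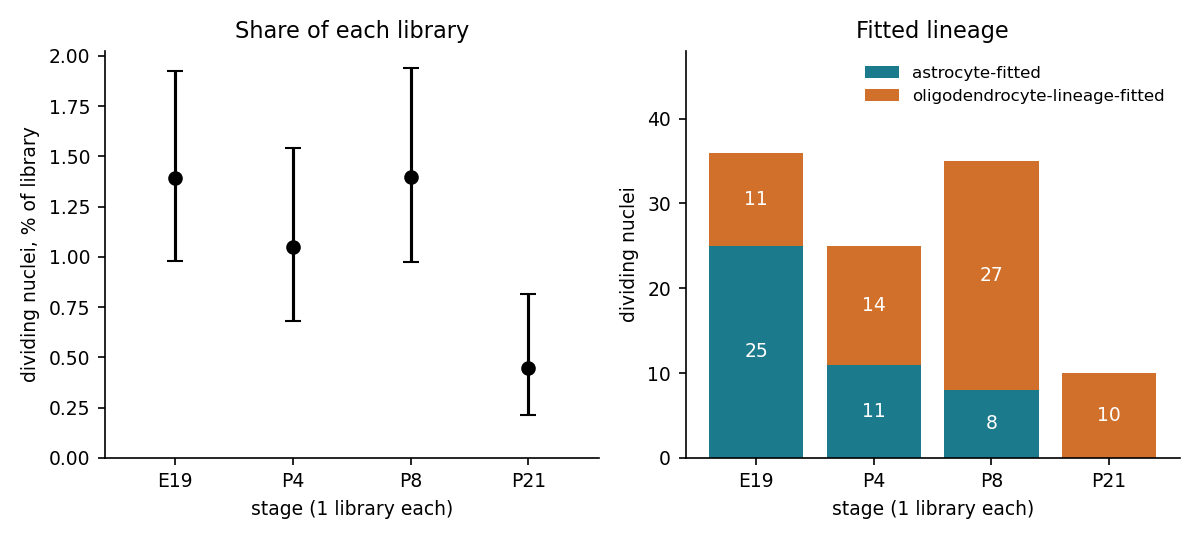
The left panel gives dividing nuclei as a percent of each library with exact 95% binomial intervals, and the right panel splits their number by fitted lineage. Shares are 1.39% in E19, 1.05% in P4, 1.40% in P8 and 0.445% in P21, and astrocyte-fitted nuclei go from 25 at E19 to 0 at P21.

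As a whole, the class made up 1.39% of the E19 library (0.977 to 1.92), 1.05% of P4 (0.679 to 1.54), 1.40% of P8 (0.976 to 1.94) and 0.445% of P21 (0.213 to 0.816). The P21 interval lies below those of E19 and P8 and overlaps that of P4. Each stage is 1 library, so stage and library cannot be told apart, and shares also depend on which nuclei were recovered and kept.

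In the 62 oligodendrocyte-lineage-fitted nuclei the precursor genes stood at the level of OPCs. Pdgfra, the receptor that drives precursors to divide, stood at 886 CPM (791 to 988) in them, at 37.0 CPM (17.8 to 68.1) in the 44 astrocyte-fitted nuclei and at 848 CPM in stage-weighted OPCs. By library its level in these nuclei was 1217, 552, 924 and 865 CPM from E19 to P21, and P4 was lowest. Sox10, a transcription factor that defines the lineage, stood at 370 CPM against 11.1 CPM, Cspg4, the NG2 proteoglycan, at 290 CPM against 22.2 CPM, and Olig1 and Olig2, the lineage's bHLH factors, at 201 against 63.0 CPM and 177 against 85.2 CPM. The 9 genes of the precursor list summed to 13047 CPM, beside 14846 CPM in OPCs. The 5 genes that most set these nuclei apart from the astrocyte-fitted ones were Tnr, Myt1, Lhfpl3, Itga9 and Pstpip2. Lhfpl3 stood at 6569 CPM against 85.2 CPM, and Pstpip2 at 339 CPM against 0 UMIs, at least 30.6-fold higher against a floor of 3 UMIs.

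Genes of the later oligodendrocyte were lower than in OPCs. The list of 11 summed to 505 CPM against 972 CPM in stage-weighted OPCs. Bcas1, found in precursors that begin to mature, stood at 193 CPM against 481 CPM, and Gpr17, a receptor of the same step, at 130 CPM against 183 CPM. Neither of these differences reached 4-fold. Bcas1 was also among the 5 lowest of all genes at 100 CPM or more in this comparison, a ranking added after the values were seen, with Fbxl20, Vps8, Itm2b and Agpat4.

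Of the 44 astrocyte-fitted nuclei 41 held at least 3 UMIs of the astrocyte list, as did 41 of the 62 others, at lower levels. Slc1a3, a glutamate transporter of radial glia and astrocytes, stood at 1041 CPM (923 to 1170) in them, at 121 CPM (88.2 to 163) in the oligodendrocyte-lineage-fitted nuclei and at 956 CPM in stage-weighted astrocytes. By library it stood at 1051 CPM at E19, 995.5 at P4 and 1059 at P8, which lie close together. Slc4a4, a bicarbonate transporter, stood at 1789 CPM against 102 CPM, and Aqp4, the water channel of astrocyte endfeet, at 267 CPM against 38.6 CPM. The 11 astrocyte genes summed to 5081 CPM, beside 5589 CPM in stage-weighted astrocytes. This list is not particular to astrocytes: it summed to 6347 CPM in vascular leptomeningeal nuclei and 2460 CPM in epithelial nuclei, beside 9282 CPM in astrocytes without weighting. The radial glia list summed to 1326 CPM, beside 1365 CPM in those astrocytes and 516 CPM in the other lineage. Sox2 (144 CPM) and Fabp7 (692.5 CPM), both of radial glia and young astrocytes, stood near the astrocyte levels of 134 and 737 CPM.

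The 5 genes that most set them apart were Tnc, Ano1, Pla2g3, Tiam2 and Notch3. Tnc, the matrix protein tenascin C, stood at 3907 CPM against 19.3 CPM in the other lineage. By library it stood at 4098 CPM at E19, 2008 at P4 and 5466 at P8, beside 2727, 1980 and 1760 CPM in astrocytes. Ano1, a chloride channel, stood at 626 CPM against 0 UMIs, at least 75.6-fold higher against a floor of 3 UMIs. Gfap, the intermediate filament of mature or reactive astrocytes, was the reverse, with 1 UMI in the astrocyte-fitted nuclei (3.70 CPM) against 101 CPM in stage-weighted astrocytes. In astrocytes themselves Gfap stood at 3.24 CPM in E19, 130 CPM in P4 and 360 CPM in P8. The 101 CPM weights these libraries as the astrocyte-fitted nuclei do and pools all astrocyte subtypes within each. A reason for the difference was not tested.

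Some receptors and patterning genes differed between the lineages and others did not. Egfr, the receptor of epidermal growth factor, stood at 752 CPM in astrocyte-fitted nuclei and 44.1 CPM in the others, and in the former at 975 CPM at E19, 472 at P4 and 397 at P8. Notch3 stood at 337 CPM against 2.76 CPM, and the Notch target Hes5 at 244 CPM against 93.8 CPM. Pax3, a factor of the dorsal midbrain, stood at 559 CPM against 57.9 CPM, and Meis2 at 885 CPM against 240.0 CPM. Of the Notch list 3 of 10 genes, of the growth factor receptors 3 of 15 and of the midbrain patterning list 1 of 12 were at least 4-fold higher over all other nuclei, beside the 5.51% of all genes. At least 4-fold lower were Flt1, a receptor of vessel cells (−2.10, 1 UMI), and Gata3, a factor of inhibitory midbrain neurons (−2.04, 5 UMIs). Over all other nuclei Egfr, Pax3, Hes5, Notch1 and Notch3 were at least 4-fold higher, yet over glia their log2 ratios were −0.86, −0.47, −0.37, 0.26 and −0.65, and 0 genes of these 3 lists were 4-fold higher there. Without the E19 library the ratios over all other nuclei were 1.10 for Egfr and 1.26 for Notch3, short of the fold. The lower calls did not hold in every setting either: Flt1 stood at −1.89 without E19 and −1.002 with 20 CPM added, and Gata3 at −1.89 without P4 and −1.29 with 20 CPM added. Erbb4 and Igf1r stood at like levels in both lineages, 2178 and 2842 CPM, and 400 and 375 CPM.

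**Figure D4:**
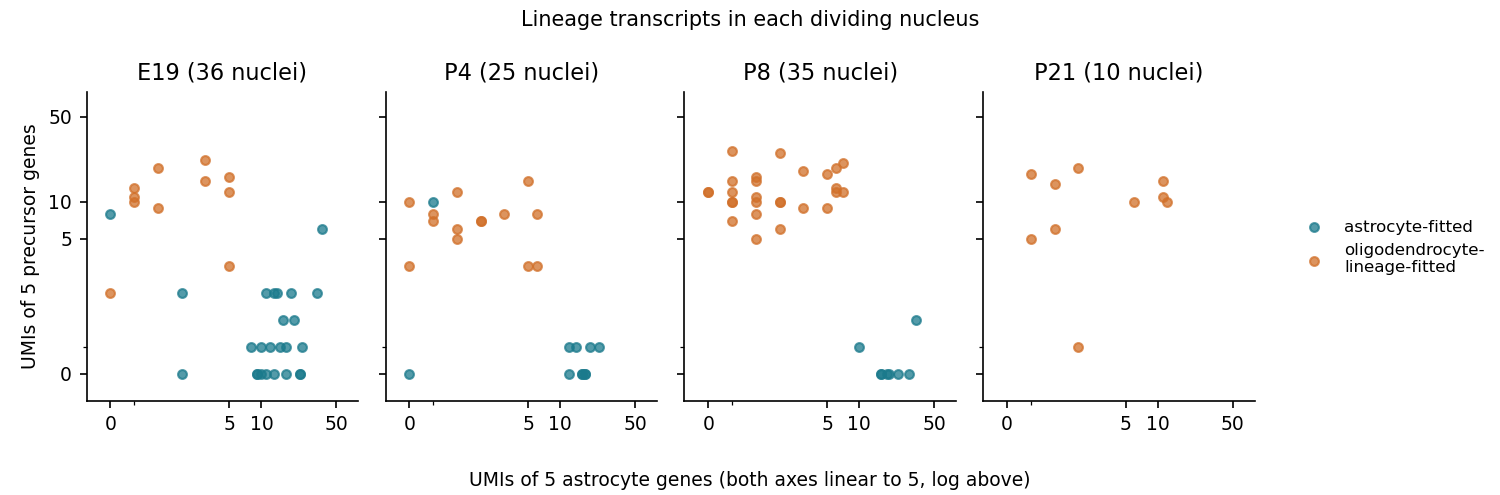
Each point is 1 dividing nucleus, placed by its UMIs of 5 astrocyte genes (Slc1a3, Slc1a2, Gja1 and Aqp4 among them) and of 5 precursor genes (Pdgfra, Cspg4, Olig1, Olig2, Sox10), with 1 panel per library and the fitted lineage in colour. Axes are linear to 5 and logarithmic above. The lineages differ in their medians but are not fully apart: 37 of 106 nuclei hold at least 3 UMIs of both sets, among them 5 of the 10 at P21. No astrocyte-fitted nucleus is seen at P21.

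Nucleus by nucleus, the 5 astrocyte genes of the plot of lineage transcripts gave a median of 16 UMIs (0 to 37) in astrocyte-fitted nuclei and 2.5 (0 to 12) in the others, and the 5 precursor genes a median of 1 (0 to 10) and 10 (1 to 26). These genes were picked from the lists after their values were seen. At least 3 UMIs of both sets occurred in 37 nuclei, of which 30 were oligodendrocyte-lineage-fitted, and among OPCs 52.9% held at least 3 UMIs of the astrocyte genes as well. In 2 astrocyte-fitted nuclei the precursor genes outweighed the astrocyte genes. One, at E19, held 8 precursor and 0 astrocyte UMIs, and the other, at P4, held 10 and 1. Both had few UMIs (2971 and 2602), a high mitochondrial percent (2.05 and 4.77) and the smallest margins over the second class among the astrocyte-fitted nuclei, and both went to the oligodendrocyte lineage when the deposited subtypes served as references, which gave 42 and 64 nuclei. One more astrocyte-fitted nucleus, at P4 with 4105 UMIs, held 0 UMIs of both sets and 1 of the whole astrocyte list, and its second class was the epithelial one. In 5 oligodendrocyte-lineage-fitted nuclei the astrocyte genes outweighed the precursor genes.

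Microglia and endothelial marker lists were low, and some neuron lists were not. The microglia list summed to 80.6 CPM against 6276 CPM in microglia, and the endothelial list to 63.2 CPM against 10892 CPM in endothelial nuclei, with Cdh5, Slco1a4 and Ly6c1 at 0. At least 3 endothelial-list UMIs occurred in 4 dividing nuclei, all at E19. The immature neuron list summed to 724 CPM, against 832 CPM in glia and 1108 and 1181 CPM in excitatory and inhibitory neurons. It reached 3 UMIs in 79 dividing nuclei. The inhibitory neuron list summed to 389 CPM, against 438 CPM in glia and 958 CPM in inhibitory neurons, and reached 3 UMIs in 41. At least 3 UMIs of the microglia list occurred in 1 dividing nucleus, at P21, which held 23 of them beside 14 UMIs of the 5 precursor genes and 2 of the 5 astrocyte genes. It is counted in the oligodendrocyte lineage, and without it that library has 9 dividing nuclei. At least 3 UMIs of the pericyte list occurred in 11 nuclei, all astrocyte-fitted, where most came from Notch3; Kcnj8 and Abcc9 were at 0, and Pdgfrb and Rgs5 gave 2 UMIs each. Ttr, a gene of the choroid plexus, gave 18 UMIs in 11 nuclei at P4 and 0 in the other libraries.

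Both lineages carried the cycle genes at like levels. All cycle lists together summed to 23050 CPM in astrocyte-fitted and 23203 CPM in oligodendrocyte-lineage-fitted nuclei, and the replication list to 2977 and 3062 CPM. Top2a gave a median of 4.5 UMIs per nucleus (0 to 14) in the former and 3 (0 to 17) in the latter. The brakes summed to 444 and 273 CPM. Over astrocytes, 89 of 204 cycle genes were at least 4-fold higher in the astrocyte-fitted nuclei, beside 1.58% of all 8024 genes compared. Over OPCs, 99 were so in the other lineage, beside 2.0% of all 7498 genes. Outside the cycle lists, the 5 largest ratios were those of Lockd, Neil3, Cdca2, Kifc5b and Tacc3 over astrocytes and Cdca2, Lockd, Gas2l3, Neil3 and Depdc1b over OPCs, a ranking added after the values were seen. Tacc3, Kifc5b and Gas2l3 act at the spindle. Among astrocyte-fitted nuclei the 5 lowest were Htr2c, Gfap, Col25a1, Cfap54 and Ccdc148.

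Between stages, libraries with at least 20 dividing nuclei were compared over genes at 100 CPM or more in the higher library, with no replicate check. From E19 to P8, 240 of 2615 genes (9.18%) were at least 2-fold higher at P8 and 264 (10.1%) at least 2-fold lower. The median of these genes was −0.11 on the log2 scale, and scaling by the median of ratios moved the split to 297 higher and 201 lower. From E19 to P4, 209 of 2803 genes (7.46%) were higher and 151 (5.39%) lower. From P4 to P8, 96 of 2684 (3.58%) were higher and 188 (7.0%) lower. Of 90 cycle-list genes measured from E19 to P8, 1 was 2-fold higher and 0 were lower, and their median was 0.10. From E19 to P4 the count was 9 higher and 2 lower of 95, and from P4 to P8 it was 5 higher and 4 lower of 101. Both directions together, these last counts lie near the share over all genes. Within the oligodendrocyte lineage 14 of 95 cycle genes were higher and 6 lower from E19 to P4, beside 339 higher and 358 lower of all 2705 genes there.

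The 5 highest ratios of P8 over E19 were those of Pde1a, a phosphodiesterase, Chrm3, a muscarinic receptor, Kcnmb2, a potassium channel subunit, Col19a1, a collagen, and Fam19a2, a secreted factor. Fam19a2 gave 16 UMIs at E19 and 138 at P8, 75.4 and 599 CPM. Within the oligodendrocyte-lineage-fitted nuclei it stood at 92.2 CPM (5 UMIs) in 11 nuclei and 749 CPM (133 UMIs) in 27, and in OPCs at 283 and 745.5 CPM. Pde1a was at 18.4 CPM (1 UMI) and 276 CPM (49 UMIs) in these dividing nuclei and at 20.98 and 97.6 CPM in OPCs. Kcnmb2 gave 0 and 41 UMIs there, and stood at 52.5 and 205 CPM in OPCs. Col19a1 stood at 55.3 and 231 CPM in these dividing nuclei but at 467 and 220.5 CPM in OPCs, the opposite direction, on 3 UMIs at E19.

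The 5 lowest ratios were those of Gm29683, Bcar3, Coro2b, Mecom and Grb10, an adaptor of growth factor receptors. Mecom, a transcription factor, gave 24 UMIs in 8 nuclei of E19, 2 in P4, 2 in P8 and 0 in P21. In the astrocyte-fitted nuclei it stood at 139 CPM at E19 and 18.9 CPM at P8, and in astrocytes at 99.3 and 25.8 CPM. Bcar3 stood at 104 CPM at E19 and 4.34 CPM at P8 over all dividing nuclei. Within the oligodendrocyte lineage Bcar3 had 0 UMIs at E19 and 1 at P8, so its direction did not hold there. Coro2b had 0 UMIs there at both stages, and Gm29683, Mecom and Grb10 were lower at P8 there too (log2 ratios −2.23, −1.98 and −1.98), on 1 or 2 UMIs each at E19. Grb10 stood at 133 and 18.9 CPM in astrocyte-fitted nuclei and at 93.9 and 23.4 CPM in astrocytes. Values over all dividing nuclei mix the lower share of astrocyte-fitted nuclei at P8 with levels within each lineage.

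The steps around P4 were led by Adgrv1, Zfp62, Prkcq, Ttr and Hpse2 upward and Igdcc3, Mecom, Smad6, Ift81 and Tdrd3 downward from E19, and by Pde1a, Chrm2, Ptprr, Tmem108 and Rac1 upward to P8. The lowest ratios of P8 over P4 were those of Gm29683, Hpse2, Ttr, Adgrv1 and Coro2b. Of these, Hpse2 rested on 16 UMIs of 1 nucleus, and Adgrv1 on 49 UMIs of 7 nuclei at P4. Prkcq, a protein kinase C, gave 4 UMIs in E19, 21 in P4, 40 in P8 and 12 in P21. The P21 library, with 10 dividing nuclei, entered no such comparison; there Fam19a2 stood at 682 CPM, Pde1a at 316 CPM and Chrm3 at 66.6 CPM.

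The boundary of the class was checked by looking for its markers elsewhere. At least 2 of Top2a, Kif11 and Knl1 were found in 93 of 106 dividing nuclei (87.7%) and in 26 nuclei of other classes, so that the class held 78.2% of such nuclei. The others were 8 of 90 microglia (8.89%, 3.92 to 16.8), 7 of 62 endothelial nuclei (11.3%, 4.66 to 21.9), 4 of 323 vascular leptomeningeal nuclei, 3 of 550 oligodendrocyte-lineage nuclei, 3 of 3459 inhibitory neurons and 1 of 4093 excitatory neurons. No such nucleus was found among 939 astrocytes (0 to 0.392%) or 102 epithelial nuclei. The 8 microglia held Top2a at 916 CPM, Mki67 at 694 CPM and their own marker list at 5689 CPM, beside 28.6, 17.9 and 6352 CPM in the other 82 microglia. After each nucleus was thinned at random to 2300 UMIs, 7 microglia (7.78%) and 3 endothelial nuclei (4.84%) still held at least 2 markers, which turns the order of these classes. In the 7 endothelial nuclei Top2a stood at 207.5 CPM against 6.54 CPM in the rest of that class. These microglia and endothelial nuclei were found under their own class names.

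**Figure D5:**
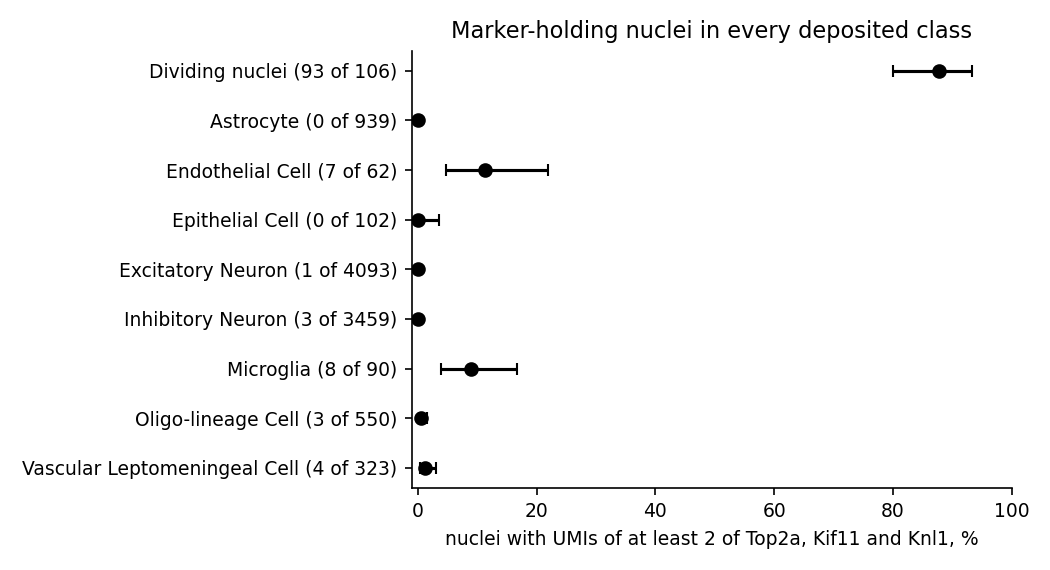
Points give the percent of nuclei in each deposited class that hold UMIs of at least 2 of Top2a, Kif11 and Knl1, with exact 95% binomial intervals; counts are printed beside the class names. The dividing class stands at 87.7%, endothelial nuclei at 11.3%, microglia at 8.89%, and all other classes are under 2%, all without thinning.

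A count of mitotic UMIs separated the class less well at a low bar. At 5 mitotic UMIs, all dividing nuclei passed, as did 93.2% of excitatory neurons and 71.1% of astrocytes. The median depth was 11598 UMIs in these neurons and 4911 in astrocytes, against 5728 in dividing nuclei. Why they passed was not tested. After thinning every nucleus to 2300 UMIs, 12.9% of excitatory neurons and 20.3% of astrocytes still held 5. A bar of 20 mitotic UMIs at that depth, added after the values were seen, was met by 88 of 106 dividing nuclei (83.0%) and by 18 nuclei elsewhere: 9 microglia, 5 endothelial and 4 vascular leptomeningeal nuclei. By stage, microglia met it in 3 of 13 nuclei in E19, 1 of 23 in P4, 4 of 21 in P8 and 1 of 33 in P21. Within the dividing class the thinned count ranged from 9 to 81 with a median of 31.5, and in astrocytes from 0 to 17 with a median of 3.

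Across the 35 deposited subtypes with at least 50 nuclei, the genes whose level followed that of Top2a most closely included Brip1 (Pearson r 0.98 of log2 levels), E2f2, Cdk1 and Spc24 (each 0.97). The points share the dividing subtype as their extreme, with Top2a at 838 CPM there, 130 CPM in microglia, 55.9 CPM in endothelial nuclei and 17.1 CPM in OPCs, and the correlation is given as a description.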

How the data were processed

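Nuclei were captured with 10x Genomics 3′ v3 chemistry and counted by the authors with Cell Ranger 3.0.2 on a pre-mRNA reference of mm10, per the labels and the submitters' processing notes, so intronic reads enter the counts. The deposited matrix holds raw UMI counts of 31053 genes in 9724 nuclei. The deposited table of nuclei gives stage, class, subtype and the percent of UMIs from mitochondrial genes. The sources used here do not say how the authors filtered nuclei, treated doublets or clustered, and no nucleus or doublet was removed here. UMIs were summed over nuclei and scaled to 1000000 (CPM), with a pseudocount of 5 CPM in log2 ratios. Genes compared had at least 20 UMIs in the dividing nuclei or 20 CPM in the nuclei they were compared with. A gene low in the latter enters only through the dividing nuclei, so the filter itself favours calls of higher genes.

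The lineage fit took the class with the highest multinomial likelihood, smoothed by 0.5 counts, with cycle genes left out, as were genes of mitochondria, ribosomal proteins, haemoglobin and the sex chromosomes. Intervals are exact Poisson for CPM and Clopper-Pearson for shares, and they cover counting error only. With 1 library per stage, and classes drawn from the same counts, no test was made. Members, lists and rules were chosen with earlier results of these data known. Named genes were the 20 highest and 10 lowest ratios, the 4 members with most UMIs of each function list with those below 0, the 3 of each marker list, the 5 largest steps between stages, 5 per lineage and 5 most like Top2a; genes of the lists named beyond these were added after their values were seen, and a few genes that the rule names are not reported here. Gene positions are from GENCODE M21, promoters from RefSeq (GRCm38.p6), and all coordinates are 1-based. The sources used here do not say whether reads were counted by strand. The ratio and the lineage fit were tested on simulated data. Python 3.11.15, numpy 2.4.6, scipy 1.17.1, pandas 2.3.3 and matplotlib 3.10.9 were used.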

Additional observations from a re-analysis of the deposited data

How the results depend on the processing

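The limits are 1 library per stage, 10 dividing nuclei at P21 and fitted lineages that rest on whole profiles. No paired analysis was possible because each stage has 1 library. Leaving out each library in turn gave 366 to 443 genes at least 4-fold higher (436 with all) and 117 to 134 cycle-list genes (136 with all). A pseudocount of 20 CPM gave 220 genes and 88 cycle-list genes, and glia as the comparison gave 200 genes; the other settings for these counts (unweighted libraries, each nucleus alike, neurons as the comparison, median of ratios, no filter) stayed within 1.5 times. Against glia the ratios of Pax3 (−0.47), Hes5 (−0.37), Egfr (−0.86) and Notch3 (−0.65) changed sign, and against neurons that of Flt1 (0.011). The lineage counts of 44 and 62 became 42 and 64 with deposited subtypes as references, also with those of the same library only, a setting added after seeing the data. With class profiles of the same library they were 42 and 54, and the 10 nuclei of P21 went to neurons; there 64 of 306 oligodendrocyte-lineage nuclei were OPCs. The marker list with the highest share of its class level gave 14 and 44, and sent 48 nuclei elsewhere on a median of 2 UMIs of the winning list, beside a median of 36 UMIs of the astrocyte and precursor lists. By 5 mitotic UMIs after thinning the shares per library were 14.6% in E19, 14.8% in P4, 14.9% in P8 and 16.2% in P21. By 2 of 3 markers they were 1.43%, 1.42%, 1.52% and 0.445%, and by 20 mitotic UMIs after thinning, a setting added after seeing the data, 1.43%, 1.17%, 1.28% and 0.400%. Nuclei with at least 3 UMIs of the precursor list numbered 89 (97 at 2 UMIs, 75 at 5, 69 thinned), of the astrocyte list 82 (92, 63 and 55), and of both replication and mitotic lists 97 (102, 89 and 80). Outside the class, 26 nuclei with 2 of 3 markers became 15 after thinning, in all classes together, and 8198 with 5 mitotic UMIs became 4936 at 10, 1361 after thinning and 18 at 20 after thinning. Within the oligodendrocyte lineage 697 genes were 2-fold apart from E19 to P4 (360 over all dividing nuclei), on 11 and 14 nuclei, and the ratio of Bcar3 from E19 to P8 changed sign (1.09). No alternative of leaving out a library exists for a step between stages.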
